A study of Mus musculus with 4 samples.

Results

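The 10 genes that encode the AP-1 and EGR transcription factors were followed through 4 RNA-seq libraries of cultured mouse cortical astrocytes. They were the rows of the deposited count table whose gene name was Fos, Fosb, Fosl1, Fosl2, Jun, Junb, Jund, Egr1, Egr2 or Egr3, and all 10 were found among the 45703 genes of the table. All 4 libraries form 1 group. CD-1 mice, with no genetic change stated, were the source: glia of their frontal cortex were taken at postnatal day 4 and grown with serum, to which B27 and EGF had been added. Every culture was washed and held for 1 h in serum-free Ham's medium before RNA was taken, and no culture without that step was analysed here, so that no level can be set against a resting one.

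AP-1 is a dimer of basic leucine zipper proteins. FOS proteins bind DNA mainly as partners of JUN proteins, while JUN proteins can also pair with each other. EGR proteins are zinc finger factors that bind GC-rich sites. Most of these genes are immediate early genes, which are switched on without new protein synthesis when growth factors, calcium or stress activate MAP kinases, SRF with its ternary complex factors, and CREB. Their transcripts are short-lived, and in astrocytes AP-1 is known for its response to injury, cytokines and mitogens.

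The libraries held 37300485 to 42369109 counts. Cultures 1 to 3 were close to each other and culture 4 stood apart, as 52.2% of 17105 genes varied beyond counting noise over 4 cultures and 8.52% of 17328 over cultures 1 to 3 (edgeR goodness-of-fit test against Poisson counts, Benjamini-Hochberg adjusted p under 0.05). Whether the cultures were started from different animals is not in the labels, and the p-values therefore speak of the spread among these libraries alone, which may be technical. All 8 astrocyte markers had a CPM (counts per 1000000 counts of the library) of at least 1 in every library, with a summed level of 6687 to 6874 CPM in cultures 1 to 3 and 5614 CPM in culture 4. Gfap (1498 to 1555 CPM against 779.7 CPM) and Aqp4 (904 to 1015 CPM against 707 CPM) were lower in culture 4. So were Gja1 (431 to 458 CPM against 339 CPM) and S100b (12.7 to 14.5 CPM against 6.11 CPM). Slc1a3, the most abundant of the 8, was only slightly lower (2597 to 2693 CPM against 2501 CPM, log2 deviation -0.07). Slc1a2, Aldh1l1 and Sox9 were not lower, with log2 deviations of 0.31, 0.05 and 0.08. Because these were bulk libraries, fewer cells of a type and less RNA per cell cannot be told apart.

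The DNA just upstream of 2 members is shown because Fos and Junb were the members whose levels differed most clearly between cultures 1 to 3, and because both are serum- and calcium-responsive genes. Each stretch holds the 250 bases before the annotated start, on the gene's own strand, from RefSeq promoter windows of GRCm38.p6 (Fos, chr12:85473640-85473889, plus strand; Junb, chr8:84978749-84978998, minus strand). Capitals mark TGACG, the core of the cyclic AMP response element to which CREB and ATF proteins bind, and the TATA element TATAAA.
Fos: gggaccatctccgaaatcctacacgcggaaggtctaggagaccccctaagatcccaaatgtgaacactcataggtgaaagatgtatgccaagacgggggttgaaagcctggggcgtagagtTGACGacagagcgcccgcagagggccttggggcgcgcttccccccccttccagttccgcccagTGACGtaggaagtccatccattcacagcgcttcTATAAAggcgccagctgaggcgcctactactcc
Junb: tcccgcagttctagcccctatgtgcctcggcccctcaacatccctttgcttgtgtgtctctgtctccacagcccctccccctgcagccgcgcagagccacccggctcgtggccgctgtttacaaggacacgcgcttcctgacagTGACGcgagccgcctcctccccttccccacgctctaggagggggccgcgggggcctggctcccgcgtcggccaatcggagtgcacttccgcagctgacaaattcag

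Windows were found for 7 of the 10 genes (not for Fosl1, Egr1 and Egr3), 11 windows in all. TGACG was present on either strand in 6 of them, from Fos, Fosb, Junb and Egr2, and in 17.8% of all 32851 windows of this length. In Fos it began 129 and 66 bases before the start, and in Junb 106 bases before it. The CArG box, the site bound by SRF, was found in 4 windows, all of Egr2, and in 1.47% of all windows. Bases further upstream than the windows were not searched. A window without a match, such as that of Fos, therefore does not show that the gene lacks a CArG box. Of the Egr2 windows 3 overlap and hold the same CArG box and the same TGACG matches, so these counts of windows are not counts of separate sites. TATAAA was found only in the Fos window, 33 bases before the start, and in 12.4% of all windows. TGACGTCA (1.55% of all windows), which contains TGACG, had no match in these 11 windows. Nor had the AP-1 site TGACTCA (4.46%) or the EGR site GCGTGGGCG (0.536%). Each was searched on both strands, but only by these exact letters. Variants were not searched, such as TGACATCA, which the Jun window holds, so these results do not show that a window lacks such sites. GGGCGG, the GC box, was in 6 of the 11 and in 32.7% of all windows. The Jund window had 47.6% G and C and the other member windows 54 to 71.2%, beside a median of 52.4% over all windows. None of the shares of all windows was matched for this. A pair of 30-base stretches shows the matches in Fosb and Egr2, both inside the annotated span of the gene. They are the Fosb stretch chr7:19310088-19310117 on the minus strand, with TGACG in capitals, and the Egr2 stretch chr10:67537787-67537816 on the plus strand, with the CArG box in capitals.
Fosb: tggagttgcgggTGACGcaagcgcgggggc
Egr2: gttcctcagtCCATATATGGgcagcgacgt
A match describes the letters in the window and does not show that a factor binds there.

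Of the 10 genes 9 reached 1 CPM in every library, as did 32.2% of all genes in the table, and the tenth, Egr3, did so in 3 of 4. Levels between genes are given as RPKM, that is CPM divided by the authors' combined exon length in kilobases. JUN family transcripts were the most abundant, with a summed level of 126 to 129 RPKM in cultures 1 to 3 and 98.9 RPKM in culture 4. FOS family transcripts summed to 29.5 to 35.1 RPKM in cultures 1 to 3 and 22.2 RPKM in culture 4, and EGR transcripts to 14.9 to 16.9 RPKM and 10.04 RPKM. For each gene the GENCODE M21 transcript with the longest coding sequence was taken. That transcript has a single exon for each of the 3 JUN genes, 4 exons for each FOS gene and 2 for each EGR gene.

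Jun (GeneID 16476; GRCm38.p6 chromosome 4, 95049036 to 95052222, minus strand) encodes c-Jun, the strongest transcriptional activator of the JUN family. Its level was 161, 168, 164 and 137 CPM in cultures 1 to 4, a mean of 49.4 ± 4.49 RPKM (SD, n = 4, here and below). Jund (GeneID 16478; chromosome 8, 70697739 to 70700616, plus strand), known as the constitutive member of the family, had 121, 124, 135 and 105 CPM, or 42.2 ± 4.28 RPKM. Both were lowest in culture 4, by a modest margin, and they made up 39.4 to 43.3% and 32.7 to 37.0% of the family's summed RPKM. Junb (GeneID 16477; chromosome 8, 84976909 to 84978748, minus strand), an inducible member that can also restrain c-Jun, had 66.1, 56.0, 56.7 and 35.7 CPM, or 29.2 ± 6.96 RPKM. Culture 4 lay far below the other 3 for Junb, and its share of the family sum was 23.8 to 28.0% in cultures 1 to 3 and 19.6% in culture 4. Some counts of Junb, Jund and Fosb were not whole numbers, in 1, 3 and 1 of the 4 libraries, so the deposited values are estimates there and were rounded for the tests.

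Jun was 1.173-fold above Jund (log2 ratio 0.23 ± 0.07, higher in 4 of 4 libraries), the smallest step in the order of the 10 genes. That order depended on the length used: with the length of the GENCODE transcript, which is 1668 bases for Jund against a combined exon length of 2878 bases, the log2 ratio was -0.56 and Jund was above Jun in 4 of 4 libraries. Jund was 1.48-fold above Junb (log2 ratio 0.56 ± 0.28).

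Fos (GeneID 14281; chromosome 12, 85473890 to 85477274, plus strand) encodes c-Fos, the founding member of its family. It had 47.7, 47.3, 35.9 and 27.5 CPM in cultures 1 to 4, or 18.8 ± 4.62 RPKM. Cultures 1 and 2 were nearly equal, culture 3 lay well below them and culture 4 lower again. Fosl2 (GeneID 14284; chromosome 5, 32136472 to 32157840, plus strand) encodes Fra-2, which lacks the strong activation domain of c-Fos. Its level was 43.5, 45.6, 47.4 and 28.5 CPM, or 7.03 ± 1.48 RPKM. Here culture 3 was the highest of the 4 and only culture 4 was low.

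Fosb (GeneID 14282; chromosome 7, 19302696 to 19310118, minus strand) encodes FosB and, by splicing, the truncated and long-lived DeltaFosB, which counts per gene do not separate. It had 11.4, 11.2, 10.7 and 12.5 CPM, or 2.98 ± 0.20 RPKM. It was the member with the narrowest spread, and the only one for which culture 4 was the highest. Fosl1 (GeneID 14283; chromosome 19, 5447698 to 5455938, plus strand) encodes Fra-1, a partner of c-Jun in migrating and transformed cells. It had 3.50, 3.09, 2.79 and 1.79 CPM, or 1.64 ± 0.43 RPKM, from 448 counts in all. Fosl1 overlaps Ccdc85b on the other strand, and although the library kit marks strand, whether reads were counted by strand is not stated in the sources used, so reads of the 2 genes might not be separated.

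Fos made up 57.7 to 64.5% of the summed RPKM of its family and was 2.66-fold above Fosl2 (log2 ratio 1.41 ± 0.23, higher in 4 of 4 libraries). The Fosl2 transcript is much longer, and this lead depended on the length term: the log2 ratio was -0.066 without it, -0.29 with the coding length of the GENCODE transcript and 1.57 with the whole length of that transcript. Fosb made up 8.36 to 9.42% of the family sum in cultures 1 to 3 and 14.7% in culture 4.

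Egr1 (GeneID 13653; chromosome 18, 34861207 to 34864956, plus strand), also named Zif268 or Krox-24, is the most widely used marker of recent ERK signalling among the EGR genes. It had 43.9, 47.6, 42.5 and 28.98 CPM, or 13.3 ± 2.65 RPKM, with culture 4 below a narrow range of the other 3. Egr2 (GeneID 13654; chromosome 10, 67534469 to 67542188, plus strand), or Krox-20, is best known from hindbrain patterning and Schwann cell myelination. It had 2.95, 3.17, 2.49 and 1.51 CPM, or 0.66 ± 0.19 RPKM, and overlaps the noncoding gene Gm32255 on the other strand. Egr3 (GeneID 13655; chromosome 14, 70077317 to 70082613, plus strand), a target of Egr1 and of calcineurin signalling in other cells, had 2.34, 2.54, 1.72 and 0.87 CPM, or 0.45 ± 0.18 RPKM. Egr2 and Egr3 rested on 405 and 299 counts in all. Both were highest in culture 2 and lowest in culture 4. Egr1 made up 91.4 to 93.9% of the family's summed RPKM and was 20.4-fold above Egr2 (log2 ratio 4.35 ± 0.17, higher in 4 of 4 libraries).

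**Figure D1:**
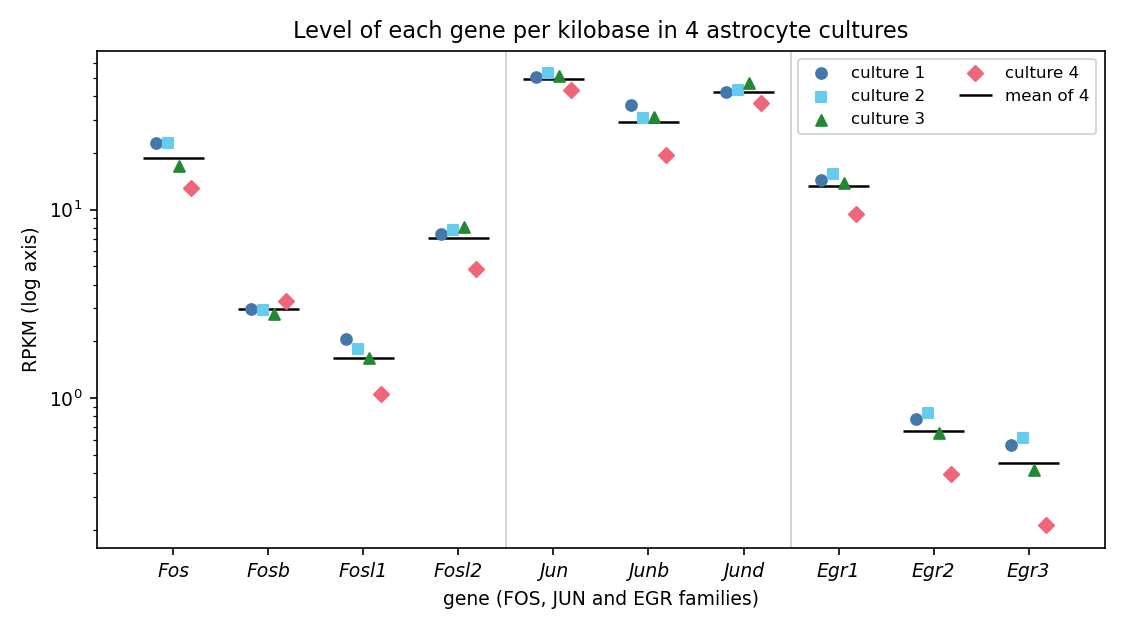
Level of each of the 10 genes in RPKM (log axis), with 1 point for each of cultures 1 to 4 and a line at their mean. Jun and Jund lie at the top, near 49.4 and 42.2 RPKM, Egr2 and Egr3 at the bottom under 1 RPKM, and culture 4 is the lowest point for every gene but Fosb.

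By mean RPKM the order was Jun, Jund, Junb, Fos, Egr1, Fosl2, Fosb, Fosl1, Egr2 and Egr3. All 9 neighbouring pairs were told apart by the rule used (same sign in 4 of 4 libraries and a mean log2 ratio above its SD). No p is attached, since an exact two-sided sign-flip test over 4 libraries cannot reach 0.05. Fos was 1.41-fold above Egr1 and Egr1 1.89-fold above Fosl2, but without the length term Fos, Egr1 and Fosl2 were not told apart, and with the GENCODE coding length Fosl2 was above Egr1 (log2 ratio -0.72 for Egr1 over Fosl2). Without the length term Fosl1 and Egr2 were not told apart either, nor were Egr2 and Egr3 with the coding length.

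The cultures were then compared, each with the mean of the other 3. In culture 4, 7 of the 10 genes were more than 1.5-fold lower, against 5.74% of 15217 genes with a mean of at least 1 CPM. None was more than 1.5-fold higher, against 2.39% of those genes. These are values of 1 library against 3, with no test. The 7 were Egr3 (2.52-fold lower), Egr2 (1.899-fold), Fosl1 (1.74-fold), Junb (1.67-fold), Fosl2 (1.598-fold), Fos (1.59-fold) and Egr1 (1.54-fold). Without culture 2 in the reference 6 genes were past that fold. Past 2-fold there was 1, Egr3. Jun and Jund were 1.205-fold and 1.204-fold lower, and Fosb was 1.13-fold higher.

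The median log2 deviation of the 10 genes in culture 4 was -0.67, beside 0.03 for all 15217 genes. For 9 of the 10 the culture 4 value lay below each of the other 3, as it did for 35.2% of all these genes. For Fosb it lay above each of them, as for 47% of all genes. Among cultures 1 to 3 the only deviation past 1.5-fold was that of Egr3 in culture 2, at a log2 value of 0.63 with culture 4 in its reference and 0.33 without it. In that culture 0.256% of all genes were past the same fold upwards and 0.493% downwards. None of the 10 passed it in culture 1, where 0.151% of all genes did upwards and 0.644% downwards, or in culture 3, where 0.302% and 0.572% did.

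**Figure D2:**
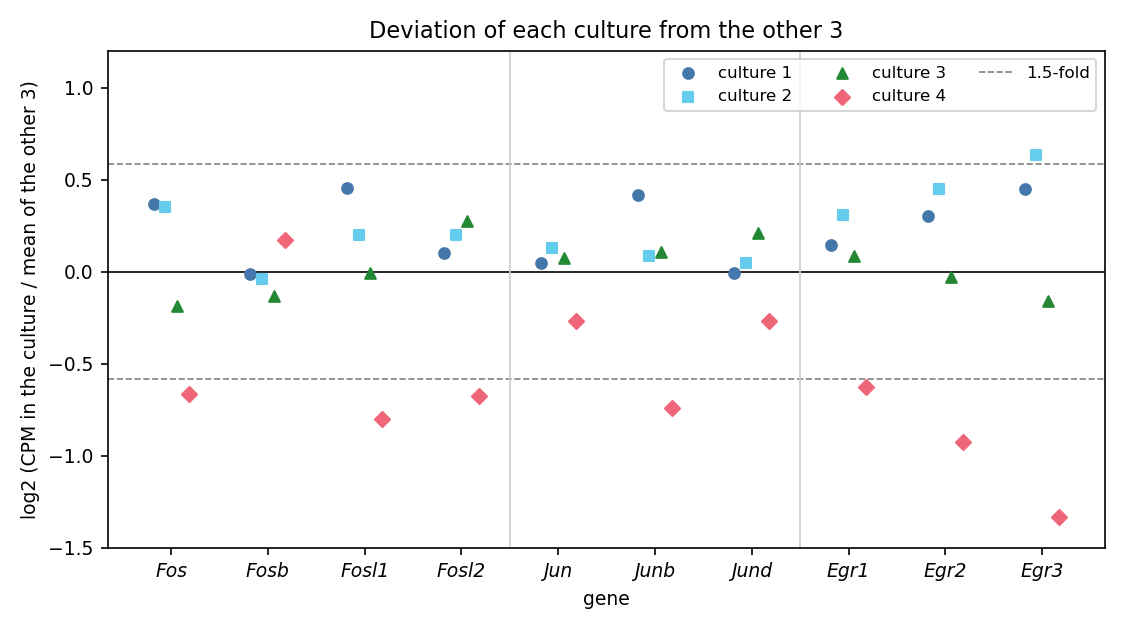
Log2 of the CPM in each culture over the mean of the other 3, for each gene, with dashed lines at 1.5-fold. Culture 4 lies below the lower line for 7 genes, between the lines for Jun and Jund, and above 0 for Fosb.

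Markers of other cell types also differed in culture 4. The summed level of the 3 fibroblast markers, of which 1 (Col1a1) was expressed, was 571 to 624 CPM in cultures 1 to 3 and 73.0 CPM in culture 4. That of the 4 microglial markers, all expressed, was 51.3 to 58.2 CPM and 38.7 CPM. For the 4 neuronal markers, 2 of them expressed, it was 32.6 to 33.9 CPM and 17.6 CPM. These 2 were Tubb3 (18.9 to 20.7 CPM and 7.53 CPM) and Syt1 (11.9 to 13.3 CPM and 9.75 CPM). Snap25 (0.51 CPM) and Rbfox3 (12 counts in all) were not expressed. The 3 oligodendrocyte markers (2 expressed) summed to 18.04 to 19.6 CPM and 13.2 CPM. The 2 precursor markers (both expressed) summed to 36.0 to 37.7 CPM and 43.6 CPM. Of these, Pdgfra had 12.0 to 13.5 CPM in cultures 1 to 3 and 20.5 CPM in culture 4, a log2 deviation of 0.69. Cspg4 had 23.9 to 24.5 CPM and 23.1 CPM. The 3 mural markers (all expressed) summed to 1892 to 2010 CPM and 1976 CPM. The mural sum was nearly all Acta2 (log2 deviation 0.02 in culture 4), while Pdgfrb had 30.4 to 31.4 CPM in cultures 1 to 3 and 20.9 CPM in culture 4, and Rgs5 had 7.399 to 8.95 CPM and 5.098 CPM. None of the 3 endothelial markers was expressed, at a sum of 0.51 to 0.998 CPM and 0.42 CPM. No marker was at 0 in every library, but Mog and Cldn5 were at or under 3 counts in all. Whether these transcripts came from the cells they mark was not tested, nor was the part of such cells in the culture 4 values.

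Spread between cultures was tested for each gene against counting noise, over all genes of the table with enough counts. Of the 10 genes 9 varied beyond counting noise over the 4 cultures, beside 52.2% of 17105 genes, and beside 59.4% of the 14107 genes with at least as many counts as Egr3, the least abundant of the 10. Adjusted p ran from 7.63e-94 for Junb to 1.80e-05 for Fosl1 (edgeR goodness-of-fit test). Fosb was the exception (edgeR, adjusted p = 0.293). The biological coefficient of variation (BCV) is an edgeR estimate of the relative SD between cultures beyond counting error. edgeR draws each gene's value towards that of genes of similar abundance, so it is not the gene's own spread alone. The BCV was 0.336 for Egr3, 0.251 for Egr2, 0.228 for Fosl1, 0.197 for Fos and 0.196 for Junb. It was 0.178 for Fosl2, 0.169 for Egr1, 0.0982 for Jund, 0.0938 for Jun and 0.0876 for Fosb, beside a median of 0.0941 over all genes. Of the 10, 8 were above that median, and Jun and Fosb below it. Without culture 4 the members' median BCV was 0.0355, beside 0.0255 over all genes. Neither median over all genes was matched for abundance, which matters most for Egr3, Egr2 and Fosl1, the least abundant.

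**Figure D3:**
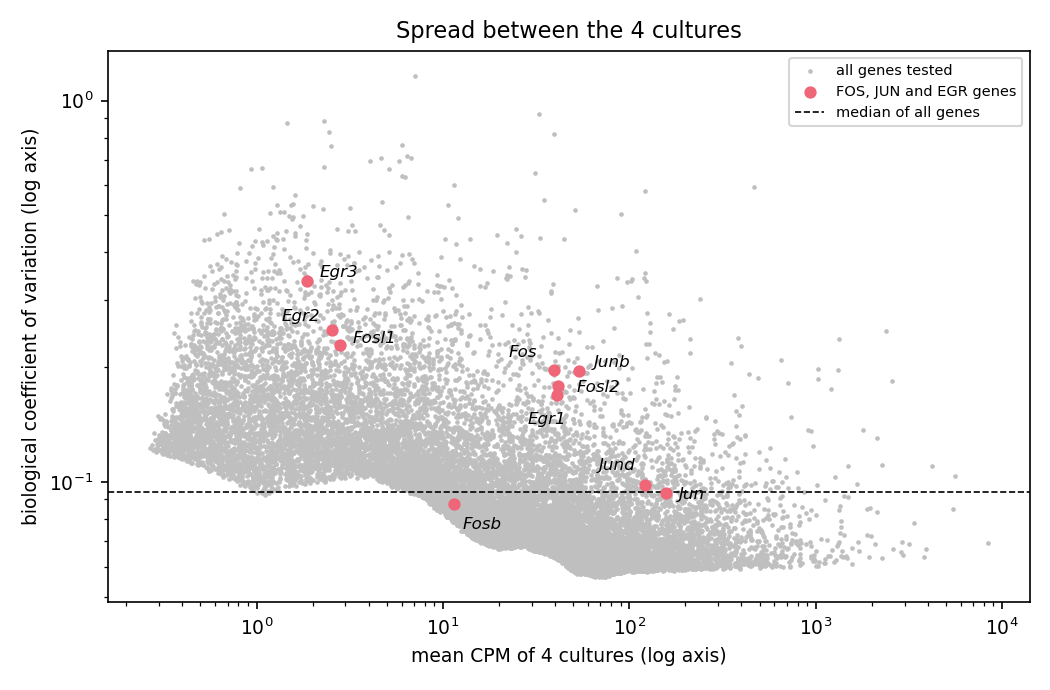
BCV of each of 17105 genes over the 4 cultures against mean CPM (both log axes), with the 10 genes in red and a dashed line at the median of all genes. Fos, Junb, Fosl2 and Egr1 form a group at 0.169 to 0.197 well above the line, while Jun, Jund and Fosb lie close to it.

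Without culture 4 a smaller set remained. Of the 10 genes 4 varied beyond counting noise over cultures 1 to 3, beside 8.52% of 17328 genes. The share was 21.7% of the 5304 genes with at least the counts of the least abundant of these 4. That comparison was chosen after seeing the data. Its count limit was set by Fos, and Fosb, Fosl1, Egr2 and Egr3 lie below it, so 4 of 10 and 21.7% cover unlike sets. Fos was the clearest, at 47.7 and 47.3 CPM in cultures 1 and 2 and 35.9 CPM in culture 3, a range of 1.33-fold (edgeR goodness-of-fit test, adjusted p = 5.96e-16). Junb was highest in culture 1, at 66.1 CPM against 56.0 and 56.7 CPM (edgeR, adjusted p = 3.40e-08). Jund was highest in culture 3, at 135 CPM against 121 and 124 CPM (edgeR, adjusted p = 4.42e-06), and Egr1 was highest in culture 2, at 47.6 CPM against 43.9 and 42.5 CPM (edgeR, adjusted p = 0.0415). The culture that stood out was thus culture 3 for Fos, where it was low, and for Jund, where it was high, culture 1 for Junb and culture 2 for Egr1. Egr3 had the widest range of all, 1.48-fold, but at 64 to 102 counts a library this was not beyond counting noise (edgeR, adjusted p = 0.207). Fosb, Fosl1, Fosl2, Jun and Egr2 did not pass either (edgeR, adjusted p of 0.230 to 0.859). PCR copies of a molecule cannot be told from separate molecules in these reads, and so the counting noise assumed is a lower limit.

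**Figure D4:**
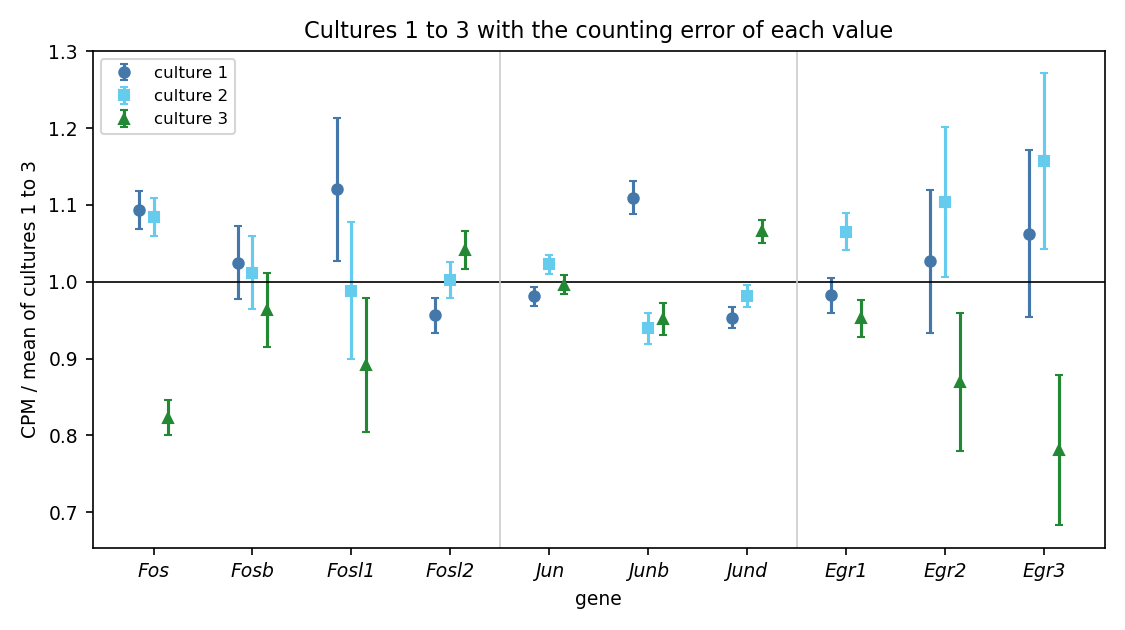
CPM of each gene in cultures 1 to 3, divided by the mean of these 3, with bars of 1 counting SD (the square root of the count). Fos in culture 3 and Junb in culture 1 lie many bars from the other cultures, while the wide bars of Fosl1, Egr2 and Egr3 reflect their low counts.

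The other genes of the pathway were taken from 9 lists of 95 genes in all, of which 86 were expressed. In culture 4, 5 of the 87 with a mean of at least 1 CPM were more than 1.5-fold lower and 0 higher, with a median log2 deviation of -0.06. The share lower is close to the 5.74% of all 15217 genes, which is also the background for each list below, as 2.39% is for higher genes. All 6 genes of SRF and its cofactors were expressed and 0 of 6 passed 1.5-fold, with log2 deviations of -0.03 to 0.17. They included the ternary complex factors Elk3 (17.6 ± 0.67 RPKM) and Elk1 (11.3 ± 0.24 RPKM), and Srf itself (5.80 ± 0.43 RPKM). All 8 CREB factors and coactivators were expressed, with deviations of -0.03 to 0.26 and the CREB coactivator Crtc2 (9.22 ± 0.60 RPKM) at the top, followed by Atf1 (6.77 ± 0.33 RPKM) and Crtc3 (5.21 ± 0.20 RPKM). All 14 genes of the MAP kinase list were expressed and 0 of 14 passed, with a wider range of deviations, -0.57 to 0.31. They included Mapk3 (ERK1, 59.98 ± 2.13 RPKM) and Map2k2 (MEK2, 42.3 ± 1.32 RPKM).

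All 22 other immediate early genes were expressed, and 3 of 22 were more than 1.5-fold lower in culture 4 (5.74% of all genes), with a list median of -0.18. These were Ccn1, a secreted matrix protein, at 189, 199, 214 and 121 CPM in cultures 1 to 4, Ier3, a stress-induced survival gene, at 16.3, 14.96, 14.8 and 9.35 CPM, and the stress factor Atf3 at 9.76, 9.60, 9.30 and 6.25 CPM. For each of the 3, culture 4 was below a closer group of the other cultures. By level the list was led by Ccn1 (89.1 ± 20.1 RPKM), Ccn2 (47.9 ± 8.005 RPKM) and Klf6 (16.5 ± 1.37 RPKM). Of the 10 ERK feedback genes 9 were expressed, led by Spred1 (22.7 ± 1.11 RPKM), Dusp6 (18.5 ± 1.198 RPKM) and Spry2 (16.8 ± 0.96 RPKM). Of these genes 0 passed 1.5-fold, with log2 deviations of -0.49 to 0.56 in culture 4. Dusp2 was not expressed, at 0.18 CPM.

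Of 13 other partners of AP-1 10 were expressed, led by Atf4 (37.8 ± 1.36 RPKM), Atf7 (9.05 ± 0.25 RPKM) and Mafg (7.11 ± 0.49 RPKM), and Atf3, counted above, was the only one of them past 1.5-fold. Batf, Batf2 and Batf3, AP-1 factors best known from lymphoid and dendritic cells, were not expressed, at 0.06, 0.06 and 0.90 CPM. The EGR corepressors Nab2 (18.7 ± 1.25 RPKM) and Nab1 (6.25 ± 0.64 RPKM) were expressed, while the fourth EGR gene, Egr4, had 21 counts in all (0.13 CPM). All 9 genes that act in turnover of these transcripts and proteins were expressed and 0 of 9 passed, with log2 deviations of -0.46 to 0.33. At the top were the RNA-binding proteins Khsrp (35.5 ± 1.96 RPKM), Zfp36l1 (33.3 ± 1.61 RPKM) and Hnrnpd (31.7 ± 3.86 RPKM). Of 12 textbook target genes of AP-1 8 were expressed, led by the cyclin Ccnd1 (565.6 ± 38.8 RPKM), Hmox1 (157.6 ± 19.6 RPKM) and Spp1 (63.5 ± 2.28 RPKM).

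Of these targets 2 were more than 1.5-fold lower in culture 4, with a list median of -0.37. The metalloproteinase inhibitor Timp1 was at 21.1, 20.5, 20.3 and 7.55 CPM, and the metalloproteinase Mmp3 at 1.38, 1.62, 1.501 and 0.50 CPM. Both had 3 close values and a low one in culture 4, but Mmp3 was not expressed by the rule used and rested on 198.5 counts in all. Vegfa differed in another library, with 149.6 CPM in culture 1 and 229, 210.5 and 245 CPM in cultures 2 to 4. That placed culture 1 more than 1.5-fold below the mean of cultures 2 to 4. Mmp9 and Mmp13 were at 0.46 and 0.07 CPM, and Il6 had 4 counts in all.

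**Figure D5:**
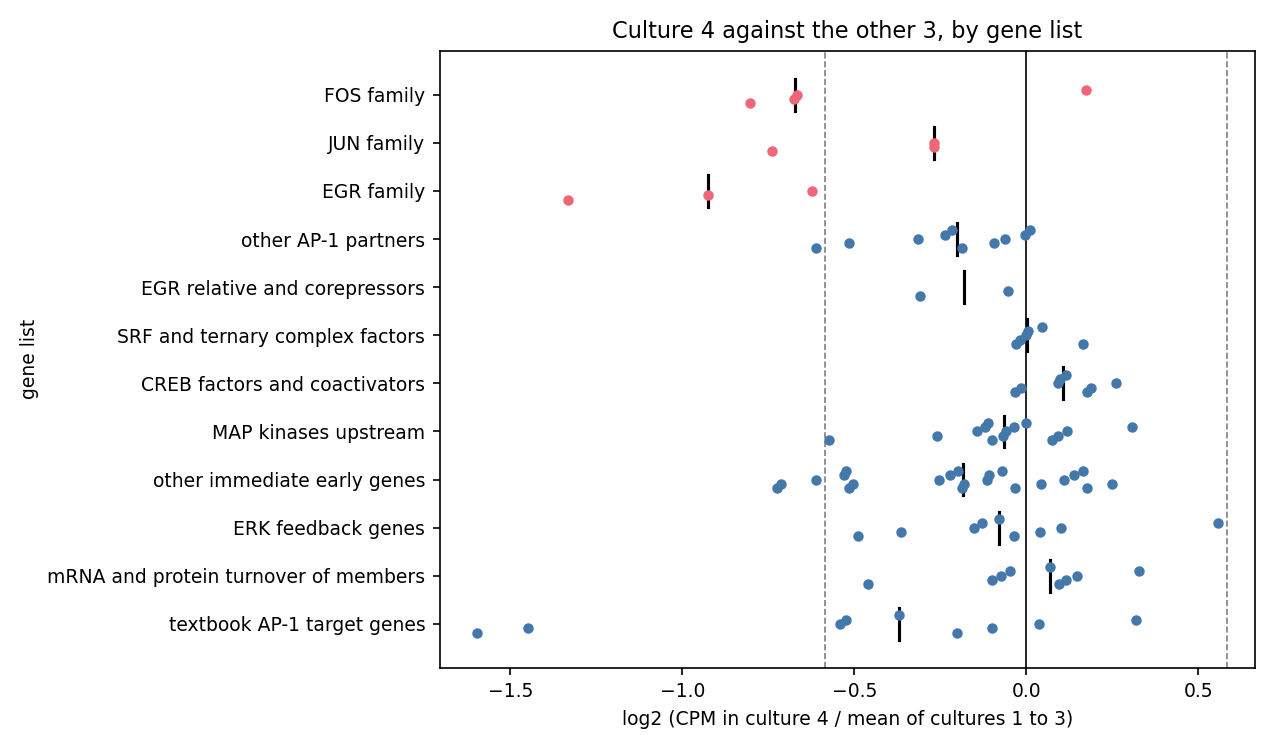
Log2 of CPM in culture 4 over the mean of cultures 1 to 3, with 1 point for each gene with a mean of at least 1 CPM and a line at each list's median, dashed lines marking 1.5-fold. The FOS, JUN and EGR families (red) have medians of -0.67, -0.27 and -0.93, and the lists of SRF, CREB and MAP kinase genes have medians of 0.002, 0.11 and -0.06.

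Genes with the profile over the 4 cultures closest to that of a member were found by the Euclidean distance between centred log2 CPM values, among 15214 genes. For Fos they were Pycard, Xaf1 and Epha7 (distances 0.07, 0.10 and 0.10), for Junb Omd, Serpinb1b and Dach2 (0.05, 0.06 and 0.06), and for Egr1 Grm3, Msr1 and Gm4221 (0.03, 0.03 and 0.03). Pycard (1.18 to 1.95 CPM), Epha7 (0.97 to 1.62 CPM), Serpinb1b (0.65 to 1.27 CPM) and Gm4221 (0.71 to 1.19 CPM) were near 1 CPM. Counting noise there is large beside such distances. Xaf1 and Dach2 were low too, while Omd, Grm3 and Msr1 were at 5.03 CPM or more in every library. These are descriptions over 4 libraries, of which 3 were close to each other.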

How the data were processed

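Poly(A) RNA-seq counts of 4 astrocyte cultures were analysed. The authors deposited estimated counts per gene for all libraries in 1 table, with gene coordinates and combined exon lengths per the file headers. Per the submitters' processing notes the build was GRCm38.p6 and the tools included featureCounts 1.6.4, STAR 2.7.2b, cutadapt 1.17 and bcl2fastq 2.20.0.422. Of the deposited values above 0, 31.7% were not whole numbers, so expected counts were rounded for tests, where the design had assumed whole counts. CPM used raw library sums (1 count was 0.0236 to 0.0268 CPM) and RPKM the deposited lengths. Expressed means that all 4 libraries reached 1 CPM.

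Each gene's counts were tested against Poisson noise with the edgeR 4.0.16 goodness-of-fit test in R 4.3.3. Settings were dispersion 0, TMM, filterByExpr and Benjamini-Hochberg over all genes kept. In 4 simulated libraries 200 genes were varied at a BCV of 0.1. The test recovered 48.5% of them, and 85% of those with counts above their median. Cultures 1 to 3 alone were not simulated, so how many varied genes are missed there is not known. Each culture's CPM was divided by the mean of the other 3, for genes whose mean reached 1 CPM, with a 1.5-fold limit. Alternatives were DESeq2 1.42.0 size factors, TMM-scaled CPM, other filters, folds and lengths, and leaving out each culture. All 10 members are named. Of each other list the text names the 3 genes highest in RPKM, genes under 1 CPM where 5 or fewer, and genes past 1.5-fold in a culture. A gene that this rule would name is not reported here. The members and lists were chosen with earlier results of these data known. Promoter letters came from RefSeq (GRCm38.p6).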

Additional observations from a re-analysis of the deposited data

Results flagged for a closer look

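In these results 1 culture lay far from the other 3, by Dixon's ratio of its gap to the whole range. Chance flags about 1 in 20 groups, and 15.2% of 15217 genes were flagged in the same way. Of 53 values tested here 8 were flagged, a share close to that of all genes. None of the 10 genes was flagged singly, but their summed level was, at 379.3 CPM in culture 4 against 499.3 to 509.3 CPM in cultures 1 to 3, as was the summed level of the JUN family, at 98.9 RPKM in culture 4. Culture 4 was also far below the others for Atf3 (6.25 CPM), Ccn2 (86.4 CPM), Nab1 (28.4 CPM) and Timp1 (7.55 CPM). Map2k2 was high in culture 3, at 112.3 CPM. Dusp2 was high in culture 1, at 0.365 CPM, from 29 counts over the 4 libraries.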

How the results depend on the processing

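The order of levels between genes depended on the length used. Without a length term the log2 ratio of Fos over Fosl2 was -0.066, of Jun over Jund 0.38 and of Egr1 over Egr2 4.04. With the coding length of the GENCODE transcript, chosen after seeing the data, these were -0.29, 0.41 and 3.86, and Egr1 over Fosl2 was -0.72. With the whole GENCODE transcript length, also chosen after seeing the data, Fos over Fosl2 was 1.57, Jun over Jund -0.56 and Egr1 over Egr2 3.44. The planned coding length from RefSeq proteins was not run. Leaving out 1 culture gave 4 to 9 members beyond counting noise (4 without culture 4), 6 to 7 members more than 1.5-fold lower in culture 4, and 0 members past 1.5-fold in cultures 1 to 3 without culture 4. A 2-fold limit left 1 member lower in culture 4, and a mean CPM of at least 5 left 4 of the 7 genes that entered, because fewer genes are tested there. At a CPM of at least 5, 7 members were expressed. TMM and DESeq2 scaling changed no count of members. Low counts limit Fosl1, Egr2 and Egr3. No paired analysis was possible because all 4 cultures form 1 group.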
